A study of Sus scrofa with 6 samples.

Results

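Fatty acid synthesis and desaturation genes were examined in longissimus dorsi muscle (LDM), taken as a glycolytic muscle, and psoas major muscle (PMM), taken as an oxidative muscle, of the pig. The genes sought were FASN, SCD, ACACA, ACACB, ACLY, ME1, SREBF1, ELOVL6, DGAT1 and DGAT2. A probe was a member when the array annotation gave one of these symbols as its gene or in brackets in its description, or when the description held the name of fatty acid synthase, acyl-CoA desaturase, acetyl-CoA carboxylase or ATP-citrate synthase. By this rule, 15 of the 43603 probes on the array were members. Gene names gave 13 of them, with 3 probes for FASN, 3 for SCD, 4 for ACACA, 2 for SREBF1 and 1 for ME1. Enzyme names gave the other 2. For 5 of the 10 genes sought, namely ACACB, ACLY, ELOVL6, DGAT1 and DGAT2, no probe met the rule.

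Total RNA of each muscle was hybridized to one-colour Cy3 arrays with 60-base probes, with 3 arrays of LDM and 3 of PMM. All samples came from female Landrace pigs aged 210 days that had received the same diet from weaning and no feed during the last 24 h, so both muscles were from fasted animals and there was no fed group. Both muscles were taken from 3 pigs, but neither the labels nor the methods tie a replicate number to an animal, and the p-values below measure the spread between these arrays. The labels call the tissue muscle, whereas their text on RNA extraction speaks of adipose tissue. Fast fibre genes (10 of 10 tested) and slow fibre genes (8 of 8) were well above background on all 6 arrays. So were fibroblast genes (5 of 5), macrophage genes (4 of 4) and 7 of 9 adipocyte genes. Tested genes had already passed a filter on detection, so these counts do not tell the tissue.

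Fatty acids are built in the cytosol from acetyl-CoA. ATP-citrate lyase (ACLY) releases acetyl-CoA from citrate, acetyl-CoA carboxylase (ACACA) turns it into malonyl-CoA, and fatty acid synthase (FASN) joins these units into palmitate with NADPH that comes in part from malic enzyme (ME1). ELOVL6 lengthens the product, stearoyl-CoA desaturase (SCD) introduces a double bond, DGAT1 and DGAT2 complete triglycerides, and the transcription factor SREBF1 drives many of these genes. In pigs the pathway is most active in adipose tissue, and muscle holds adipocytes between its fibres.

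The tested probes differ in where they lie along their transcripts. A few are shown so that their measurements can be tied to a piece of the gene. Positions are the first base of the probe in the transcript used for the array design, as the annotation gives it. The 2 ACACA probes leave 1 common reading frame open. No genome positions or transcript sequences were given for the probes, so their place in coding sequence was not checked.
FASN at base 7111: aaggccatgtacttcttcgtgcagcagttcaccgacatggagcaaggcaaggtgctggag
ACACA at base 3781: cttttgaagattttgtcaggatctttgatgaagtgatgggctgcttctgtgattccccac
ACACA at base 6661: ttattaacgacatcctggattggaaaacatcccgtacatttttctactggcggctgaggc
SREBF1 at base 297: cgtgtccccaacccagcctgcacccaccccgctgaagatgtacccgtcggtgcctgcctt
The SREBF1 probe was the richest of these in G and C, at 66.7%, against 55.0% for the FASN probe and 43.3% and 45.0% for the ACACA probes.

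No member passed the test of PMM against LDM. Of the 15 member probes, 11 were tested, having been well above background on all 3 arrays of LDM or of PMM, and 8 of these 11 were so on all 6 arrays. The other 3 were so on all arrays of 1 muscle only, SCD at base 2655 in LDM and the ACACA probes at bases 3781 and 6661 in PMM. With limma and Benjamini-Hochberg adjustment over 25835 probes, 0 of the 11 passed an adjusted p of 0.05, where 0.031% of all probes tested did. At an unadjusted p under 0.05, 0 of the 11 passed, against 2.63% of all probes. For 0 of the 11 did the arrays of the muscles fail to overlap, against 6% of all probes. The log2 difference, PMM minus LDM, was negative for 8 of the 11 and had a median of -0.42, beside -0.04 for all probes tested. The 9 probes of FASN, SCD, SREBF1 and ME1 held all 8 negative values, and the ACACA probes and the FASN probe at base 406 held the positive ones.

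Signals below are log2 values relative to the 75th percentile of each array, so a probe at 0 was as bright as that percentile. They are given for LDM replicates 1, 2 and 3 and then for PMM replicates 1, 2 and 3. The SE, interval and permutation p given with each probe's signals treat the arrays as unpaired. With the replicate number as a block, the SE was 0.17 instead of 0.79 for FASN at base 7111. For SCD at base 4688 it was 0.21 instead of 0.62. Because probes bind with different strength, a level of one probe was not set against that of another. In a bulk sample, fewer adipocytes and less RNA per adipocyte cannot be told apart.

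FASN gave, on its probe at base 7914, signals of 4.20, 3.82 and 4.81 in LDM and 3.54, 3.25 and 4.76 in PMM. PMM was below LDM of the same replicate number in 3 of 3 pairs, but the muscles overlapped, because replicate 3 was high in both. The log2 difference was -0.43 (SE 0.46, n = 3 arrays per muscle, 95% interval -1.48 to 0.62, exact permutation p = 0.4), where 0.1 is the smallest two-sided p that 3 arrays against 3 can give. The FASN probe at base 7111 gave -0.17, -1.66 and 0.83 in LDM and -0.69, -2.17 and 0.61 in PMM. It had the same order of arrays, with replicate 3 highest and replicate 2 lowest in each muscle, and PMM was again lower in 3 of 3 pairs. Its log2 difference was -0.42 (SE 0.79, n = 3, exact permutation p = 0.7), and it turned to 0.16 without LDM replicate 3 and to 0.29 without PMM replicate 2. The third probe, at base 406, was dim, with -4.29, -3.39 and -3.34 in LDM and -3.67, -3.11 and -3.64 in PMM. It did not share that order, and its log2 difference was 0.20 (SE 0.37, n = 3, exact permutation p = 0.8), or -0.11 without LDM replicate 1.

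SCD, the enzyme that makes monounsaturated fatty acids, gave, on its probe at base 5044, 1.33, 1.41 and 2.70 in LDM and 0.65, 0.20 and 3.01 in PMM. PMM was lower in the pairs of replicates 1 and 2 and higher in that of replicate 3. Its log2 difference was -0.53 (SE 0.72, n = 3, 95% interval -2.18 to 1.13, exact permutation p = 0.6), and without PMM replicate 2 it was 0.02. The probe at base 4688 gave -0.78, -1.46 and 0.13 in LDM and -1.56, -2.35 and -0.05 in PMM. In each pair PMM was below LDM, yet the muscles overlapped through replicate 3. The log2 difference was -0.61 (SE 0.62, n = 3, exact permutation p = 0.4), which was the most negative among the members. The probe at base 2655 was dim, at -4.34, -4.43 and -3.41 in LDM and -4.78, -4.64 and -3.53 in PMM. Its log2 difference of -0.26 (SE 0.44, n = 3, exact permutation p = 0.5) was positive, at 0.07, without LDM replicate 3, and at 0.33 with another background correction (normexp). All 3 SCD probes were highest in replicate 3 in both muscles.

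SREBF1, the transcription factor above these enzymes, gave 2.66, 2.11 and 3.79 in LDM and 2.28, 1.97 and 2.95 in PMM at base 297. PMM was lower in 3 of 3 pairs and the muscles overlapped. The log2 difference was -0.46 (SE 0.48, n = 3, 95% interval -1.55 to 0.64, exact permutation p = 0.6), and it was 0.01 without LDM replicate 3. The probe at base 3590 gave -0.04, -0.56 and 0.83 in LDM and 0.05, -0.90 and -0.16 in PMM, with PMM lower in 2 of 3 pairs. Its log2 difference was -0.42 (SE 0.44, n = 3, exact permutation p = 0.5). This second probe was 81.7% G and C, and it was the 1 probe of 43603 that held both GTCGAC and GCGGCCGC, the recognition sequences of SalI and NotI, enzymes commonly used to clone cDNA. Both sequences read the same on either strand, they do not overlap in their letters, and alone they occurred in 66 probes (0.151%) and 14 probes (0.0321%). The SREBF1 probe at base 297 held neither. What these letters do to the signal was not tested.

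ME1, which supplies NADPH, gave 2.04, 1.76 and 0.90 in LDM and 1.86, 1.56 and 0.25 in PMM. PMM was lower in 3 of 3 pairs, by 0.18, 0.21 and 0.65 on the log2 scale, and the muscles overlapped. The log2 difference was -0.34 (SE 0.49, n = 3, 95% interval -1.47 to 0.78, exact permutation p = 0.6), and it was 0.14 without PMM replicate 3. Replicate 3 was the lowest in both muscles for ME1, whereas it was the highest for the SCD probes and for FASN at bases 7111 and 7914. It was also the highest in both muscles for SREBF1 at base 297 and ACACA at base 6661.

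**Figure D1:**
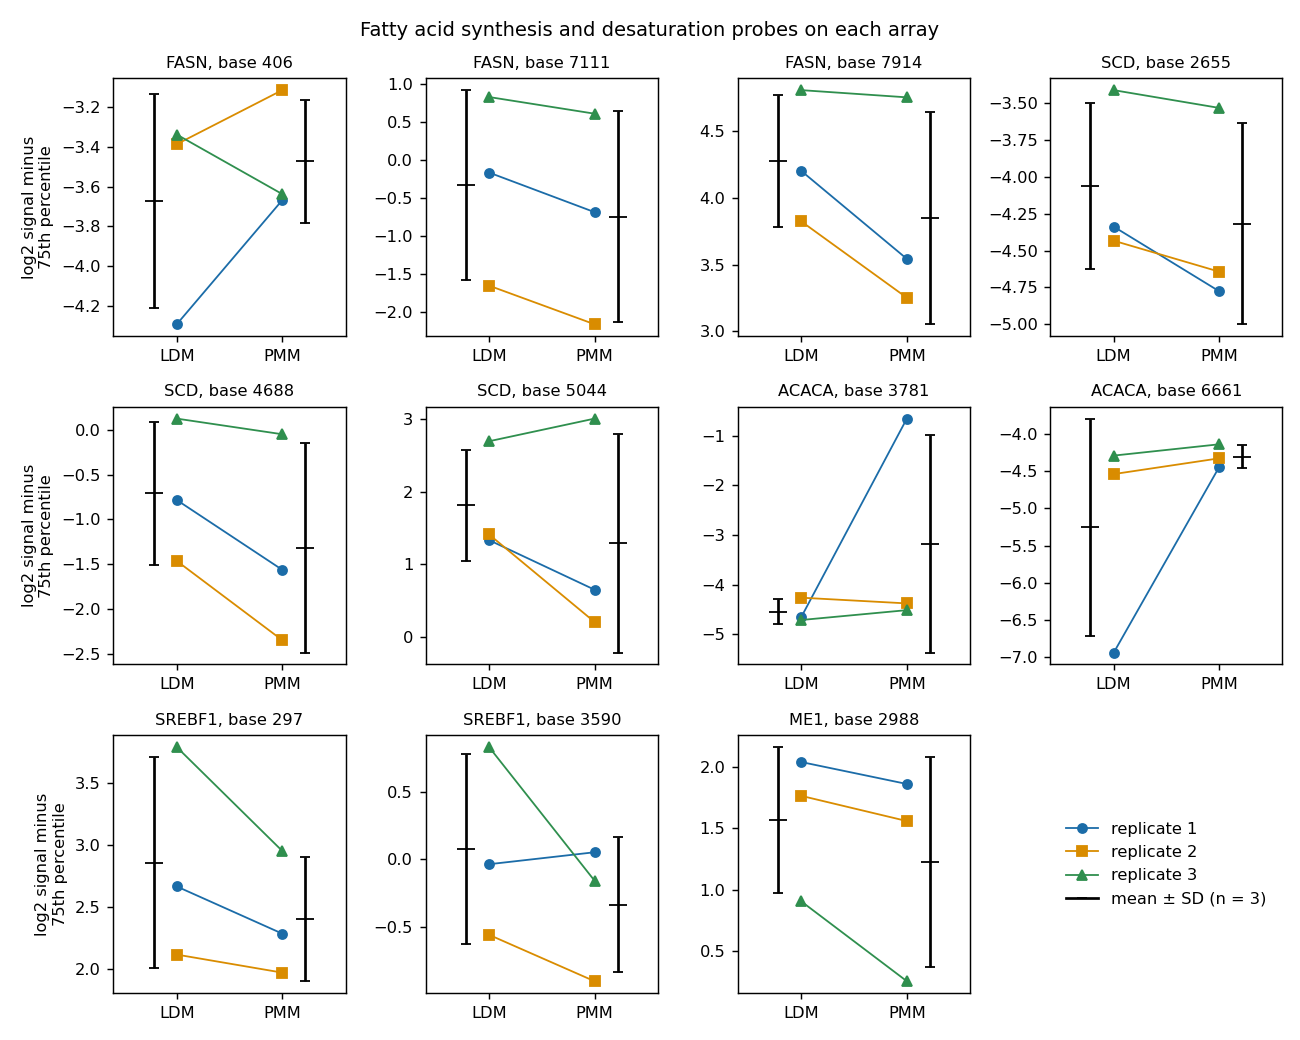
Each panel plots the log2 signal of a tested member probe, relative to the 75th percentile of its array, in LDM and PMM, with lines joining arrays of the same replicate number and black bars for mean ± SD (n = 3). Replicate 3 lies on top in both muscles for the SCD probes, FASN at bases 7111 and 7914, SREBF1 at base 297 and ACACA at base 6661. The ACACA panels each turn on 1 array of replicate 1.

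ACACA, which makes malonyl-CoA, had 2 tested probes, and each had 1 array that stood apart. At base 3781 the signals were -4.65, -4.26 and -4.71 in LDM and -0.66, -4.38 and -4.51 in PMM. PMM replicate 1 alone was high, and the log2 difference of 1.36 (SE 0.91, n = 3, exact permutation p = 0.3) was 0.10 without that array, 0.60 with normexp and 0.33 with the slide as a random block, a fit in which 0 of the 11 members and 1.16% of all probes passed. At base 6661 the signals were -6.94, -4.54 and -4.29 in LDM and -4.44, -4.33 and -4.14 in PMM. LDM replicate 1 alone was low, and the log2 difference of 0.95 (SE 0.64, n = 3, exact permutation p = 0.3) was 0.11 without it. The probe at base 400 was well above background on 1 of 6 arrays, PMM replicate 1, where it read -2.00, and between -8.36 and -6.81 on the others. The probe at base 5095 was well above background on 1 of 6 arrays and ranged from -6.52 to -5.43.

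The scanner's local background around the spots of the probes at bases 400 and 3781 was 82 and 91 intensity units on PMM replicate 1, against a median of 30.5 over that array. On the other 5 arrays it lay between 30.5 and 38 units for these spots. Of all spots on PMM replicate 1, 0.132% and 0.112% had a local background at least this high. The spots at bases 5095 and 6661 had 30 and 33 units there and did not share it. The part of the raised background in the 2 high signals was not tested.

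**Figure D2:**
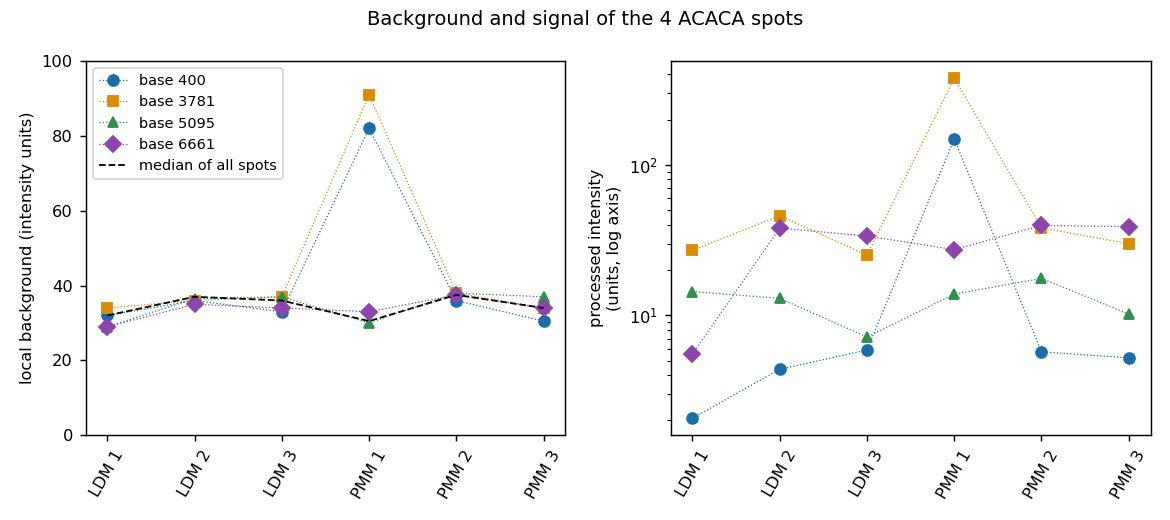
Left, local background in intensity units around the spots of the 4 ACACA probes on each array, with the median of all spots dashed; right, their processed intensity on a log axis, with dotted lines joining the points of a probe. The background rises to 82 and 91 units for the probes at bases 400 and 3781 on PMM replicate 1, the array on which the same probes are bright.

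The 2 members found by enzyme name were barely detected. One was matched to a rat acyl-CoA desaturase and was well above background on 0 of 6 arrays. The other, titled after a bacterial acetyl-CoA carboxylase, was well above background on 1 of 6 arrays. Neither was tested.

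Probes for ACLY, DGAT1 and an ELOVL6-like transcript were on the array under older names, ACL and DGAT, or under an expressed sequence tag, and were found outside the rule after the annotation had been seen. ACLY at base 4288 gave a log2 difference of 0.03 (SE 0.38, n = 3), and at base 736 one of 0.54 (SE 0.30, n = 3). The probe at base 736 was dim, between -5.09 and -4.16, and it was well above background on 3 PMM arrays but 2 LDM arrays, so it was tested only through PMM. Its arrays did not overlap between the muscles, as for 6% of all probes, but limma's adjusted p was 0.390 with the replicate number as a block. DGAT1 gave 0.18 (SE 0.34, n = 3) and the ELOVL6-like probe -0.40 (SE 0.37, n = 3), and both overlapped between the muscles. None of these 4 probes was called.

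**Figure D3:**
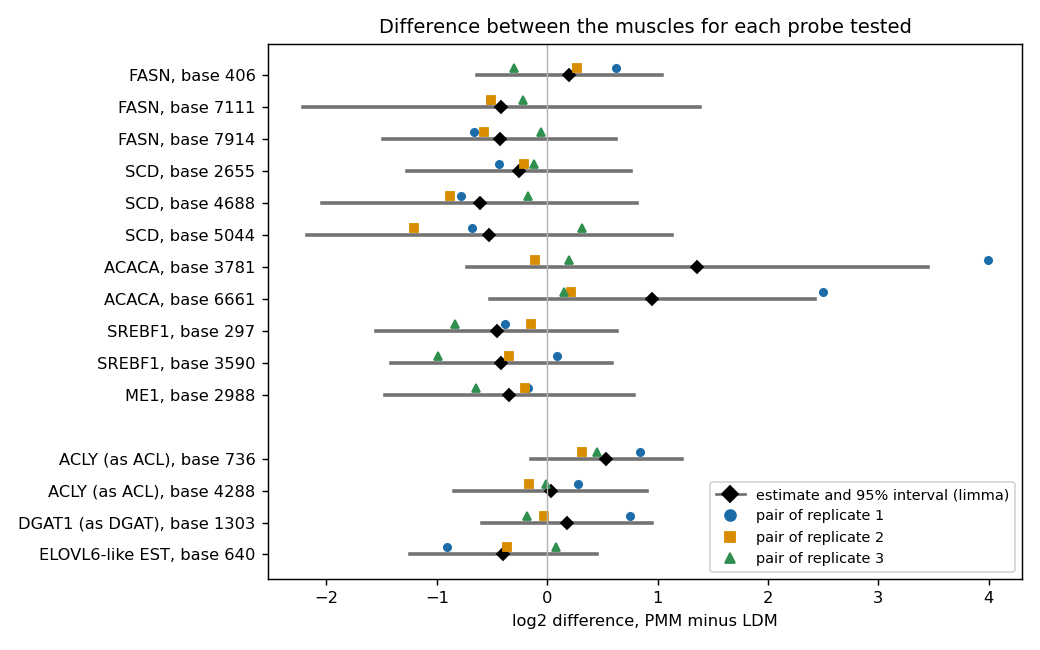
For each tested probe, the black diamond gives the log2 difference, PMM minus LDM, with its 95% interval from limma, and the coloured symbols give the difference within each pair of arrays of the same replicate number; probes outside the rule stand below the gap. The intervals are those of the fit without the replicate block, which ignores the pairs. Every such interval contains 0, and the values of the ACACA pairs of replicate 1, at 3.99 and 2.50, lie far from those of the other pairs.

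Arrays of the same replicate number were also compared as pairs. In all 3 pairs 6 of the 11 members were lower in PMM, against 19.3% of all probes, and 1 was higher, against 16.3%. The 6 were FASN at bases 7111 and 7914, SCD at bases 2655 and 4688, SREBF1 at base 297 and ME1. Probes of the same gene read the same RNA, so this is not a count of separate genes. SCD at base 2655, tested only through LDM, turned positive with normexp. The probe that was higher, ACACA at base 6661, was tested only through PMM. The median difference over the members was -0.38 for replicate 1, -0.21 for replicate 2 and -0.17 for replicate 3, where all probes had medians of -0.01, 0.008 and -0.10. The pairs of replicates 2 and 3 each shared a slide, and that of replicate 1 did not. With the replicate number as a block, 0 of the 11 members passed an adjusted p of 0.05 in limma, against 0.0658% of all probes, and their adjusted p ranged from 0.383, for SCD at base 4688, to 0.791, for FASN at base 406. At an unadjusted p under 0.05, 1 of the 11 passed, again SCD at base 4688 (unadjusted p = 0.028 in the limma fit over all probes), against 11.1% of all probes. Without LDM replicate 1, PMM replicate 1 or PMM replicate 2, no member failed to overlap, against 12.2%, 15.7% and 9.89% of all probes. ACACA at base 3781 alone failed to overlap without LDM replicate 2, against 12.3% of all probes. ACACA at base 6661 alone did so without LDM replicate 3, against 14.7%. Without PMM replicate 3, 4 members did not overlap, FASN at base 7914 and the 3 SCD probes, against 16.8% of all probes.

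Members, like all probes at the median, varied more between replicate numbers than between muscles. The share of the sum of squares over the 6 arrays that lay between replicate numbers had a median of 81.2% over the 11 members, beside 74.2% for all probes, and that between muscles one of 12.3%, beside 6.54%. For all 11 members the share between replicate numbers was the larger, and how many of all probes had this order was not counted. There were more replicate numbers than muscles, so the shares are not on equal terms. The share between replicate numbers was 96.0% for FASN at base 7111, whose muscle share was 3.60%. It was smallest among the members for ACACA at base 3781, at 35.8% beside a muscle share of 22.2%. The means of the pairs spanned 6.18-fold for FASN at base 7111, 4.13-fold for SCD at base 5044, 3.85-fold for SCD at base 4688 and 2.58-fold for ME1. The pair of replicate 3 was the highest for 8 of the 11 members, which was likewise not counted over all probes. The replicate number coincided with the day of scanning, so pig, if the numbers stand for pigs, and scan cannot be told apart.

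**Figure D4:**
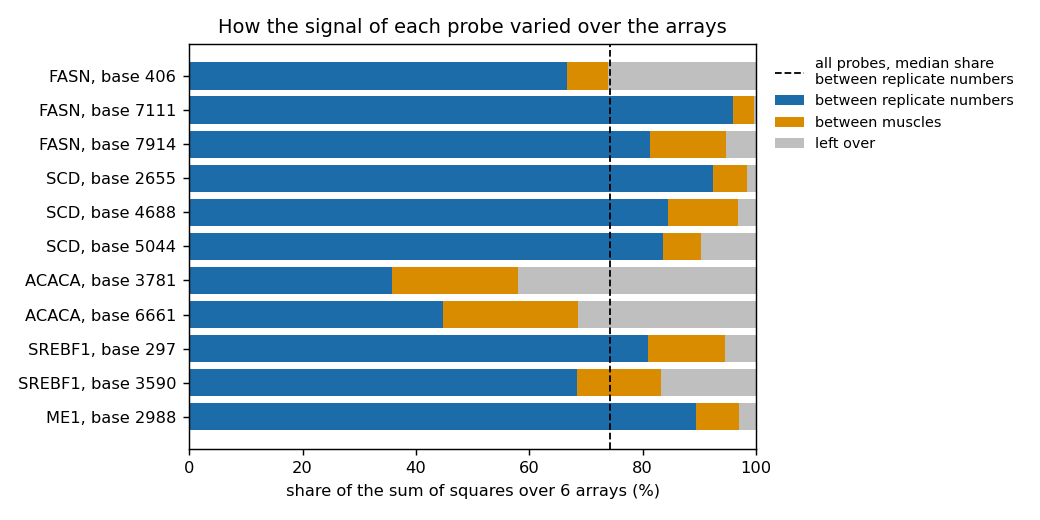
Bars split the sum of squares of each tested member over the 6 arrays into the share between replicate numbers, between muscles and left over, in percent, and the dashed line marks the median share between replicate numbers over all probes. The blue share is larger than the orange one for all 11 members, and it passes the line for FASN at bases 7111 and 7914, the SCD probes, SREBF1 at base 297 and ME1.

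The named genes whose centred profile over the 6 arrays lay closest to that of FASN at base 7914, by root mean square distance among 2724 genes well above background on all arrays, were SAA3 at 0.149, TLR7 at 0.220 and ANGPTL2 at 0.230 log2 units. Closest to SCD at base 5044 were GNLY at 0.422, P14ARF at 0.433 and UPB1 at 0.449. FASN and SCD were highest in replicate 3 on these probes, so genes close to them share that by the way they were chosen.

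Other genes of lipid synthesis were taken from lists of 137 genes, of which 49 were tested. In limma 0 of the 49 passed over all probes, with or without the replicate block, where the lowest adjusted p was 0.216. With 1 probe per named gene and the block, 5 of the 49 passed, 4 higher and 1 lower in PMM, against 7.08% of 2840 named genes. None of the 5 member genes did in that fit, where their adjusted p was 0.137 for ACACA, 0.221 for SREBF1, 0.249 for FASN, 0.253 for SCD and 0.374 for ME1. The values below are log2 differences, PMM minus LDM, with the SE and the adjusted p of that fit where it passed. With slide as a random block over all probes, 1 of the 49 passed, PC (limma adjusted p = 0.0251), whereas the adjusted p was 0.0792 for MDH1, 0.155 for ACSS2, 0.105 for PPARGC1A and 0.242 for PNPLA2.

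In the supply of acetyl-CoA and NADPH, 3 of 7 tested genes passed. MDH1, the cytosolic malate dehydrogenase, was higher in PMM by 1.08 (SE 0.21, limma adjusted p = 0.00389), and ACSS2, which activates acetate, by 0.78 (SE 0.20, limma adjusted p = 0.0267). PC, the pyruvate carboxylase, was lower, at -0.87 (SE 0.20, limma adjusted p = 0.0113). For these 3 genes the arrays of the muscles did not overlap, against 6% of all probes, but the genes were picked by a test of the same difference. Genes of other lipid lists did not overlap either, among them PPARGC1A and PNPLA2, which passed, and DBI, which did not. MDH1 read 5.04, 4.79 and 4.19 in LDM and 6.61, 5.56 and 5.09 in PMM, and PC read 1.63, 1.50 and 1.91 in LDM and 1.05, 0.65 and 0.72 in PMM.

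Among 14 tested regulators of lipid synthesis, PPARGC1A, a coactivator of mitochondrial genes, passed, at 0.90 (SE 0.20, limma adjusted p = 0.00987). PRKAA2, a catalytic subunit of AMP-activated kinase, gave -0.58, and CEBPA, an adipogenic transcription factor, gave -0.44, and neither passed. Elongation and desaturation had 3 tested genes, and none passed, with FADS1, a front-end desaturase, at -0.43, CYB5A, the electron donor of desaturases, at -0.19 and SCD5 at -0.04.

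Fatty acid activation and glycerolipid assembly had 0 of 10 genes past the threshold, with ACSL1, which activates long-chain fatty acids, at 0.67, DBI, which binds acyl-CoA, at 0.65 and AGPAT4 at 0.46. In triglyceride breakdown 1 of 6 passed, PNPLA2, the adipose triglyceride lipase, at 0.80 (SE 0.22, limma adjusted p = 0.0368), whereas PNPLA3 gave 0.43 and LIPE, the hormone-sensitive lipase, -0.32. Cholesterol synthesis had 0 of 9, with SQLE, the squalene epoxidase, at 0.24 and MVK, the mevalonate kinase, at 0.22. The list of mitochondrial fatty acid synthesis had no gene matched to a probe. The medians of the lists were 0.39 for acetyl-CoA and NADPH supply, -0.10 for regulators, -0.19 for elongation and desaturation, 0.15 for activation and assembly, 0.08 for breakdown and 0.16 for cholesterol synthesis, beside -0.42 for the members.

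**Figure D5:**
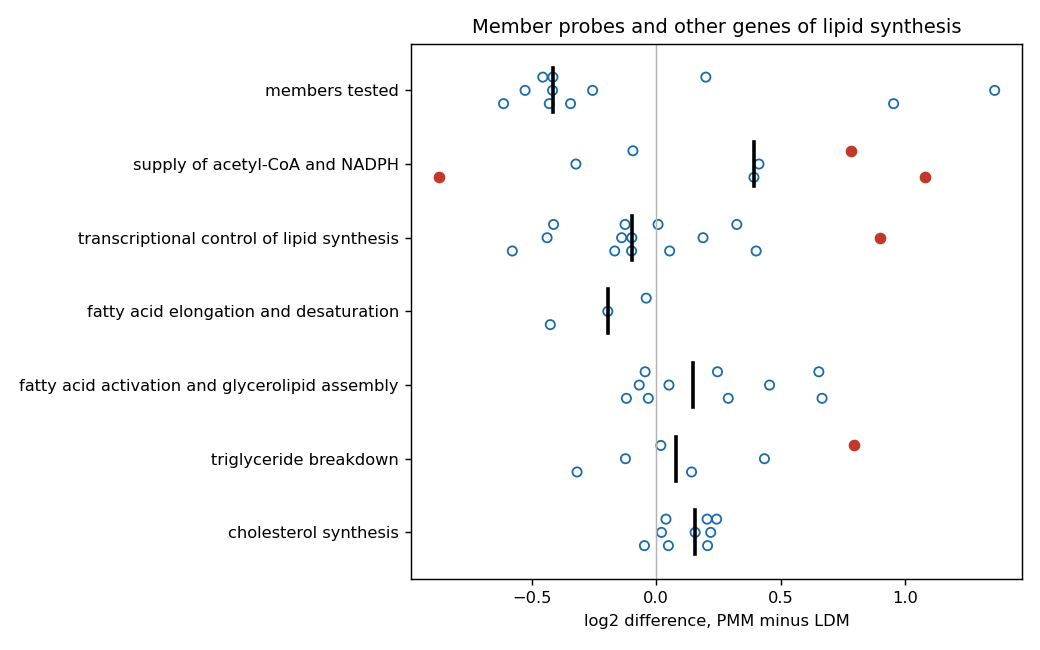
Each circle is the log2 difference, PMM minus LDM, of a tested member probe (top row) or of a gene of a lipid list, and black lines mark medians; filled red circles passed an adjusted p of 0.05 with 1 probe per named gene and the replicate block, a fit not drawn for the top row. The members lie mostly left of 0, with a median of -0.42, and the 5 red genes lie in the supply, control and breakdown rows.

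Markers of other cell types were read beside these values, and in the same fit with 1 probe per named gene and the block 12 of 44 tested marker genes passed, against 7.08% of all named genes. Over all probes 0 of the 44 passed in limma, with or without the replicate block, where the lowest adjusted p was 0.169, and 2 passed with slide as a random block, ATP2A2 and POSTN. Of 9 tested adipocyte genes, PLIN1 (-1.03), CIDEC (-0.86) and CIDEA (-0.78), which coat lipid droplets, passed and were lower in PMM. LPL, a lipase that muscle fibres also make, passed and was higher (1.12), while RETN, at -0.97, did not pass. PLIN1 and RETN were well above background on 3 LDM arrays but 2 PMM arrays, so they were tested only through LDM. The summed level of the 9 genes, dominated by the brightest, was 7.25, 8.70 and 9.01 in LDM and 7.50, 8.78 and 8.87 in PMM. It was highest in replicate 3 in both muscles. The median difference was -0.63, or -0.04 with normexp. With only probes well above background on all 6 arrays it was -0.10, over 7 genes. The remaining adipocyte genes, ADIPOQ, LEP, FABP4 and CFD, gave -0.63, -0.10, 0.10 and 0.05 and did not pass. They were well above background on all arrays and were added here after their values were seen. The adipocyte genes did not share 1 order of arrays, since ADIPOQ was highest in replicate 2 in both muscles, at 4.71 and 4.51, and PLIN1 in replicate 3, at -2.53 and -3.18. The part of adipocyte content in the member values was not tested.

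All 8 tested slow fibre genes were higher in PMM, with a median of 0.77, and 4 passed. These were ATP2A2 at 1.21, TNNI1 at 1.03, MYOZ2 at 1.02 and TPM3 at 0.93. Their summed level ranged from 10.83 to 11.28 in LDM and from 11.36 to 12.04 in PMM, so the muscles did not overlap. Of 10 fast fibre genes 0 passed, with a median of 0.05 and MYH2 at 0.49, TNNT3 at 0.40 and PVALB at 0.14, and a summed level of 12.23 to 12.98 in LDM and 12.48 to 13.15 in PMM. Of 5 fibroblast genes 3 passed, all lower in PMM, with POSTN at -1.63, COL1A2 at -0.84 and COL1A1 at -0.83, and a summed level of 6.63 to 7.81 in LDM and 6.16 to 7.26 in PMM. Of 6 endothelial genes ENG passed, at 0.79, beside CDH5 at 0.46 and TEK at 0.41, with a summed level of 5.78 to 7.40 in LDM and 6.58 to 7.37 in PMM. Of 4 macrophage genes 0 passed, with CD14 at 0.16, CD163 at 0.10 and MRC1 at -0.09. Their summed level was 3.24, 4.59 and 5.23 in LDM and 3.51, 4.61 and 5.01 in PMM. The macrophage, endothelial and fibroblast sums were all highest in replicate 3 in both muscles. The erythrocyte list had no gene matched to a probe. Among liver markers, ALB, the serum albumin gene, stood at 3.28 on LDM replicate 3 and between -3.95 and -3.04 on the other 5 arrays. APOA1 gave -0.01, with 3.99, 4.73 and 6.31 in LDM and 4.73, 4.66 and 5.61 in PMM. LDM replicate 3 was also an array without which FASN at base 7111, SCD at base 2655 and SREBF1 at base 297 changed sign. FASN at base 7111 also did so without PMM replicate 2. Within PMM these 3 probes were likewise highest on replicate 3, where ALB was -3.93 and APOA1 was at its highest in PMM, 5.61. The part of these cell types and of the composition of LDM replicate 3 in the member values was not tested.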

How the data were processed

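RNA of 3 LDM and 3 PMM samples was hybridized to one-colour arrays. The authors deposited linear Cy3 intensities from Agilent Feature Extraction 10.5.1.1, which corrects spatial trends without normalizing between arrays. The processed intensity was not the mean signal less the local background. For ACACA at base 400 on PMM replicate 1, the mean signal was 206 units, the local background 82 and the processed intensity 149. The study refers to an earlier report for its array workflow and ran the MultiExperiment Viewer to find differentially expressed genes; the normalization and the test within it are not given in the sources used here. The deposited value table held the same intensities to within 0.005 units. The 75th percentile per array ranged from 595 to 883 units, 58.5% to 72.4% of spots were well above background, and 0 were saturated. The number of arrays limits the precision.

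Control spots and outlier spots (6 to 161 per array) were left out, repeated spots averaged, and the array's 75th percentile subtracted from log2 intensity. A probe was tested when well above background on all 3 arrays of either muscle with at least 2 values per muscle, by limma 3.58.1 in R 4.3.3 (lmFit, eBayes), two-sided, with Benjamini-Hochberg adjustment over all probes and a threshold of 0.05. Single members also had an exact permutation test. The fit without a block was tested on simulated data, where it called 104 of 200 changed probes and 3 unchanged ones. The simulated arrays were independent, without the shared variation of same-numbered arrays. Fits with a block or with 1 probe per named gene were not tested in this way. Symbols came from RefSeq accessions, gene numbers, synonyms or the files, for 5086 probes; list genes were read on their brightest probe.

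Every tested member is given. Of each list, the 3 genes with the largest absolute difference are named, with all that passed where 5 or fewer did, and for FASN and SCD the 3 genes closest in profile. Items withheld from the text are not reported here. Members and lists were chosen with earlier results of these data known. Deviations of same-numbered arrays from their muscle's mean correlated at 0.62, 0.70 and 0.56 across 25725 probes, so same-numbered arrays were treated as pairs, each value being over 0.1; that both muscles came from 3 pigs is stated by the study. Alternatives covered normalization, background correction (normexp, offset 50), detection filter, outlier spots, value table, variance trend, slide and replicate blocks, 1 probe per named gene and leaving out each array. The study's DNA methylation and miRNA data were not used here.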

Additional observations from a re-analysis of the deposited data

How the results depend on the processing

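No member was called under any of the 23 alternatives, with or without the replicate block, and the lowest adjusted p was 0.137 (ACACA, 1 probe per named gene with the replicate block). The median log2 difference of the members, -0.42, was -0.26 with no filter on detection and -0.26 with the replicate block without both arrays of replicate 3, and ranged from -0.66 to 0.012 when 1 array was left out. With 1 array left out, 0 to 4 of the 11 members did not overlap, beside 9.89% to 16.8% of all probes. SCD at base 2655 turned to 0.33 under normexp, and FASN at base 406 to -0.014 with the replicate block without both arrays of replicate 1. Leaving out 1 array, FASN at base 406 ranged from -0.11 to 0.37, FASN at base 7111 from -1.09 to 0.29, SCD at base 2655 from -0.65 to 0.068, SCD at base 5044 from -1.39 to 0.016, SREBF1 at base 297 from -0.83 to 0.012 and ME1 from -0.68 to 0.14, and the cause of these turns was not tested. With 1 array left out, FASN at base 7914 ranged from -0.88 to -0.13, SCD at base 4688 from -1.25 to -0.099 and SREBF1 at base 3590 from -0.73 to -0.038, and these 3 were negative under every alternative that tested them. Of the pathway and marker genes, 0 were called in the main analysis, 3 with slide as a random block, 17 with 1 probe per named gene and the replicate block, and 5 with the replicate block without both arrays of replicate 1; the cause was not tested. The fits without both arrays of a replicate and the block with quantile normalization were chosen after seeing the data. Dim probes (FASN at base 406, SCD at base 2655, ACACA and ACLY at base 736) lie closest to background.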
